A study of Arabidopsis thaliana with 8 samples.

Results

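Of the 1087 GBF2 peaks that the authors deposited for tunicamycin-treated and DMSO-treated Arabidopsis seedlings, 283 were given a position class other than promoter of up to 1 kb (here the proximal promoter), and these are described here. They were taken by the authors' own position class: every peak annotated as promoter of 1 to 2 kb or 2 to 3 kb, 5′ UTR, exon, intron, 3′ UTR, downstream (up to 300 bp) or distal intergenic. The tunicamycin list held 184 of them among 767 peaks, and the DMSO list 99 among 320, so that a site with a peak in both is counted in each.

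The peaks come from ChIP-seq (immunoprecipitation of chromatin and sequencing of the DNA bound) on whole seedlings of the accession Col-0. The seedlings carried pGBF2:GBF2-Ypet, in which the promoter of GBF2 drives GBF2 fused to a yellow fluorescent protein, and the fusion was pulled down through an anti-GFP antibody. All groups carried this transgene, and all tissues of the seedling were pooled. At an age of 5 days they were treated for 6 h with tunicamycin, which blocks protein N-glycosylation and so causes ER stress, at 0.5 µg/mL, or with DMSO alone. Each treatment had 2 libraries of immunoprecipitated DNA and 2 of input, 8 libraries in all, but the peak lists hold no values per library. Neither depth nor replicate spread can therefore be given. Peaks are not replicates of a treatment, so differences between the lists were not tested, and the 95% Wilson intervals given for shares cover counting error only.

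GBF2 belongs to the G-box binding factors, bZIP proteins that dimerise on a short palindromic element found mostly in promoters. In the compact genome of Arabidopsis a site beyond a proximal promoter often lies inside or just behind a neighbouring gene. Pseudogenes, many of them remnants of transposons, gather around the centromeres, where protein-coding genes are sparse.

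Peaks outside proximal promoters made up 24.0% of the tunicamycin list (21.1 to 27.1%) and 30.9% of the DMSO list (26.1 to 36.2%). In the tunicamycin list the classes were the promoter of 1 to 2 kb with 47 peaks, distal intergenic with 41, 3′ UTR with 35, exon with 30, the promoter of 2 to 3 kb with 15, 5′ UTR with 10, downstream with 5 and intron with 1. In the DMSO list the distal intergenic class came first with 36 peaks, then the promoter of 1 to 2 kb with 21, exon with 12, the promoter of 2 to 3 kb and the 3′ UTR with 11 each, 5′ UTR with 4, and intron and downstream with 2 each. The distal intergenic share was 5.35% of the tunicamycin list (3.96 to 7.17%) and 11.3% of the DMSO list (8.24 to 15.2%). For each of the other 7 classes the intervals of both lists overlapped. The intervals take each peak as independent. Yet 18 of the 41 distal tunicamycin and 22 of the 36 distal DMSO peaks lay within 10 kb of another peak in their list.

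**Figure D1:**
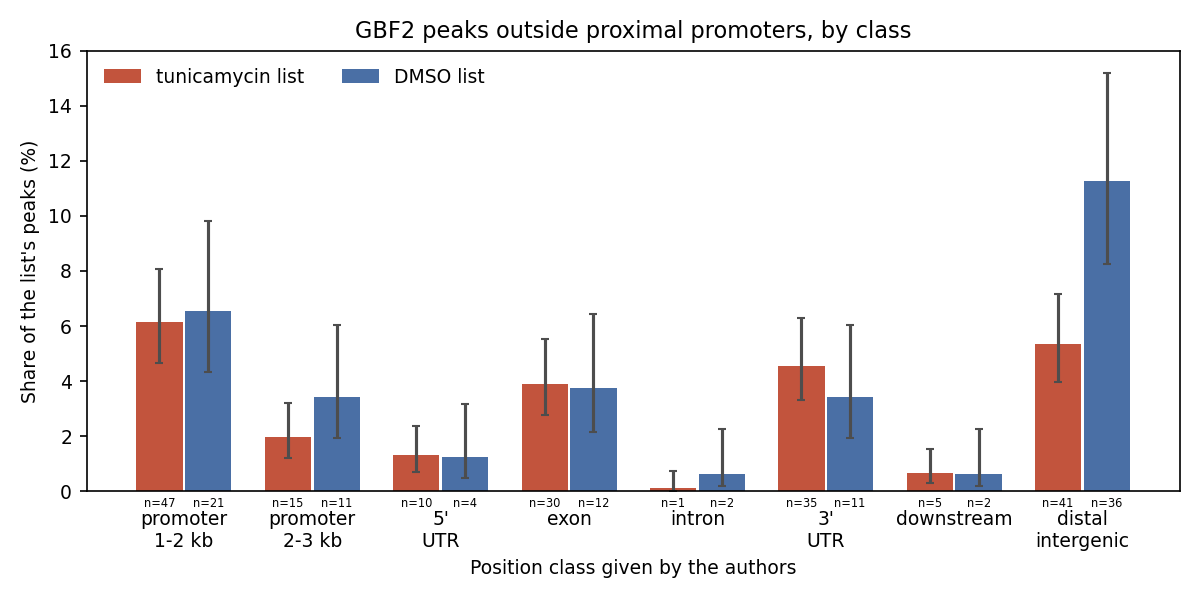
Share of each peak list that falls in each position class outside the promoter of up to 1 kb, in percent of the list's peaks; bars are the tunicamycin list and the DMSO list, whiskers are 95% Wilson intervals of counting error, and n is the number of peaks. The distal intergenic bars stand at 5.35% for tunicamycin and 11.3% for DMSO, and the whiskers of the other classes overlap. Whiskers take each peak as independent, though many distal peaks lay close together.

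By median score and by the highest ranks, these peaks were not the weak end of either list. The score is the signal value that the authors give a peak, and it was read only within a list. Its median was 2.50 outside proximal promoters and 2.46 inside them in the tunicamycin list, and 3.03 outside and 2.91 inside in the DMSO list. Of the 10 highest-scoring peaks, 5 in the tunicamycin list and 6 in the DMSO list lay outside the proximal class. Among the 50 highest, the counts were 16 in the tunicamycin list and 20 in the DMSO list. The lowest score of the DMSO list, 1.71, was also that of an outside peak, and the lowest of the tunicamycin list, 1.89, that of a proximal one.

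The promoter classes of 1 to 3 kb held 62 tunicamycin and 32 DMSO peaks. The highest score of the class of 1 to 2 kb was at the pseudogene AT1G42420 in both lists, 6.44 in the tunicamycin list (chromosome 1, 15880031 to 15881124, TAIR10 coordinates as deposited) and 7.85 in the DMSO list. The next in the tunicamycin list were FRO2, the ferric-chelate reductase of the root surface, with 4.19, AT5G51560 with 4.16, AT1G62480 with 3.95 and AT2G44500 with 3.77. The next in the DMSO list were the long non-coding RNA gene AT2G40008 with 4.28, AT5G51560 with 4.27, AT5G01380 with 4.15 and AT1G62480 with 3.88. In the class of 2 to 3 kb the tunicamycin list was led by TCP4, a transcription factor gene of leaf development, with 3.53 (chromosome 3, 5058621 to 5059500), the trihelix factor gene GT2 with 3.37, AT1G75590 (SAUR52 among the table's synonyms) with 3.37, the pseudogene AT5G29550 with 3.28 and the AP2/ERF gene ERF8 with 2.79. The DMSO list was led there by TIC (TIME FOR COFFEE), a clock gene, with 4.15, then AT5G11460 with 3.50, GT2 with 3.45, TCP4 with 3.35 and the F-box gene VFB1 with 3.10. Apart from ERF8, which had a tunicamycin peak alone, all of these sites had overlapping peaks in both lists.

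The classes within transcripts (5′ UTR, exon, intron and 3′ UTR) held 76 tunicamycin and 29 DMSO peaks, and the highest-scoring outside peak of each list. CYP86A8, a fatty acid hydroxylase gene of cutin synthesis, had a 5′ UTR peak that scored 7.49 in the tunicamycin list (rank 1 of the list) and 8.54 in the DMSO list (rank 2). CYP86A4 had a score of 6.57 in the tunicamycin list, where its peak was classed as exon 1 of 2, and 7.78 in the DMSO list, where it was classed as 3′ UTR. CYP86A2 was an exon peak in the tunicamycin list alone (score 5.82), since its DMSO peak was in the proximal promoter class. Of the 5 CYP86A genes 4 had a peak in each list, and 3 of the 4 tunicamycin peaks and 2 of the 4 DMSO peaks lay outside the proximal class. By contrast, none of the 3 tunicamycin and 2 DMSO peaks at the 7 G-box factor genes, and none of the 4 peaks per list at the 5 clock pseudo-response regulator genes, did.

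The 5′ UTR class also held the F-box gene AT1G15670 (KMD2), whose group targets response regulators of cytokinin signalling for degradation, with 5.58 in the tunicamycin list and 6.27 in the DMSO list. Its relative AT1G80440 (KMD1) was a 5′ UTR peak in the DMSO list alone (6.25), where the tunicamycin peak fell in the proximal class. RHD3, a GTPase gene that shapes the ER network, scored 2.41 in the tunicamycin list and 3.46 in the DMSO list, which gives the 4 DMSO peaks of this class. The tunicamycin list went on with ATL5, a RING-type ubiquitin ligase gene, at 3.31, AT4G16640 at 3.21 and AT2G17880, a DnaJ-type co-chaperone gene by the table's synonyms, at 2.77.

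The exon class was partly a matter of protein-coding genes and partly of pseudogenes. After CYP86A4 and CYP86A2, the tunicamycin list had AT4G37420 with 3.08 and 2 peaks at the pseudogene AT4G06477 with 2.90 and 2.81. The DMSO list was led by the same pseudogene's 2 peaks, with 4.08 and 4.04, followed by 3 of 5 outside peaks given to AT2G08986, with 3.73, 3.46 and 3.40. AT2G08986 is annotated with 46 exons and took 6 exon peaks in the tunicamycin list (exons 4, 6, 17, 21, 25 and 37), all between 3618563 and 3626811 on chromosome 2. In the DMSO list its outside peaks were 4 exon peaks (exons 17, 20, 25 and 37) and 1 distal intergenic peak, between 3621262 and 3627781. Intron peaks were rare: AT2G43140, in intron 1 of 5, scored 2.98 in the tunicamycin list and 3.39 in the DMSO list, and AT5G10340 had a DMSO peak alone (2.75).

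The 3′ UTR peaks of the tunicamycin list were mostly without a counterpart. Of 35, 5 overlapped a DMSO peak (14.3%, 6.26 to 29.4%), against 277 of all 767 tunicamycin peaks (36.1%). In the authors' list of tunicamycin-specific peaks, which held no distal intergenic peak, were 33 of the 35, against 502 of the 767. F8H, a glycosyltransferase gene, led with 4.93 (chromosome 5, 7678085 to 7679489), followed by AT3G46320 with 3.20, Pnsl5, a chloroplast cyclophilin gene, with 2.83, GATL3, a galacturonosyltransferase-like gene, with 2.61, and the zinc finger gene GATA9 with 2.61. In the DMSO list all 11 peaks of this class overlapped a tunicamycin peak (interval from 74.1%), against 85% of all DMSO peaks, which lies inside that interval. Of these 11, 5 met a tunicamycin peak of the 3′ UTR class and 6 met one of another class. The 3′ UTR shares of the lists are therefore not shares of the same sites. CYP86A4 led them with 7.78, then F8H with 5.58, AT5G54300 with 3.82, CCR3, a CRINKLY4-related receptor kinase gene, with 3.38 and Pnsl5 with 3.28.

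The downstream class was small. In the tunicamycin list it held AOX1A, the mitochondrial alternative oxidase gene, with 4.35, the ethylene response factor gene ERF4 with 3.15, the pseudogene AT5G31909 with 2.67, MYB74 with 2.59 and the pseudogene AT3G06433 with 2.52. The DMSO list held AT5G31909 with 2.76 and AT3G06433 with 2.73. The ERF4 peak, at 3432 bp, was the widest outside peak of the tunicamycin list, followed by those of AT3G33055 with 3422 bp and AT5G67411 with 2565 bp. The widest of the DMSO list were those of AT3G33055 with 4397 bp, AT5G31821 with 2523 bp and CYP86A8 with 2371 bp.

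The distal intergenic peaks were spread over all chromosomes, with 6, 9, 11, 5 and 10 tunicamycin peaks and 3, 8, 10, 8 and 7 DMSO peaks on chromosomes 1 to 5, and they fell into 2 kinds by where they lay. For each peak the 10 genes on either side of its assigned gene were looked up in the gene order of a RefSeq table (assembly TAIR10.1), and a neighbourhood was called rich in pseudogenes when they made up at least 50% of these 20 genes. Pseudogenes were 12.8% of the 37887 nuclear genes of the table. Of the 41 distal tunicamycin peaks 13 were in such neighbourhoods, 25 were in others and the rest had genes that were not in the table. Of the 36 distal DMSO peaks 22 were in rich neighbourhoods and 12 in others. This split by neighbourhood was chosen after the peaks were seen.

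Outside the rich neighbourhoods, distal peaks mostly stood alone and had the width of promoter peaks. Their median width was 965 bp in the tunicamycin list and 830.5 bp in the DMSO list, against 870 bp and 884 bp for the proximal promoter class of the same lists. LYK4, a LysM receptor kinase gene of chitin perception, had the highest score of this kind in each list, 4.18 in the tunicamycin list and 4.73 in the DMSO list (chromosome 2, 10119254 to 10120127 in the tunicamycin list). AT1G13370 scored 3.73 in the tunicamycin list, the second of this kind, and 3.83 in the DMSO list, just below LCR32. EMB269, which codes for an Obg-like GTPase of chloroplasts, scored 3.41 in the tunicamycin list and 2.57 in the DMSO list. AT3G26511, which had no entry in the gene table and so no neighbourhood, scored 3.34 in the tunicamycin list and 2.93 in the DMSO list. A trio on chromosome 2 at GATA13, LCR5 and LCR32, between 12107903 and 12152931, was present in both lists, with scores of 2.63, 2.81 and 3.38 in the tunicamycin list and 2.91, 2.91 and 3.87 in the DMSO list. LCR5 and LCR32 are named for low-molecular-weight cysteine-rich proteins.

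Inside the rich neighbourhoods, outside peaks lay close together and had smaller median widths, though wide ones were there too. Counting all classes outside proximal promoters, 31 tunicamycin peaks were there, with a median width of 545 bp against 907 bp in the other neighbourhoods, and 38 DMSO peaks, with 419.5 bp against 923 bp. The median gap to the nearest other peak of the same list was 197 bp in the tunicamycin list and 198.5 bp in the DMSO list, against 26890 bp and 79245 bp in the other neighbourhoods. Peaks of at most 500 bp numbered 18 in the tunicamycin list, 14 of them in rich neighbourhoods, and 30 in the DMSO list, 23 of them there. In the proximal promoter class 2 tunicamycin and 4 DMSO peaks were as narrow. Outside peaks in rich neighbourhoods reached 3422 bp in the tunicamycin list and 4397 bp in the DMSO list. For distal peaks, rich against other, the medians were 822 bp against 965 bp (tunicamycin) and 405 bp against 830.5 bp (DMSO). Proximal promoter peaks in rich neighbourhoods, 9 in each list, had median widths of 803 bp (tunicamycin) and 1438 bp (DMSO). The scores of outside peaks were alike in both kinds of neighbourhood. Medians were 2.50 in rich and 2.50 in other neighbourhoods of the tunicamycin list, and 3.04 in rich and 3.07 in other neighbourhoods of the DMSO list.

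**Figure D2:**
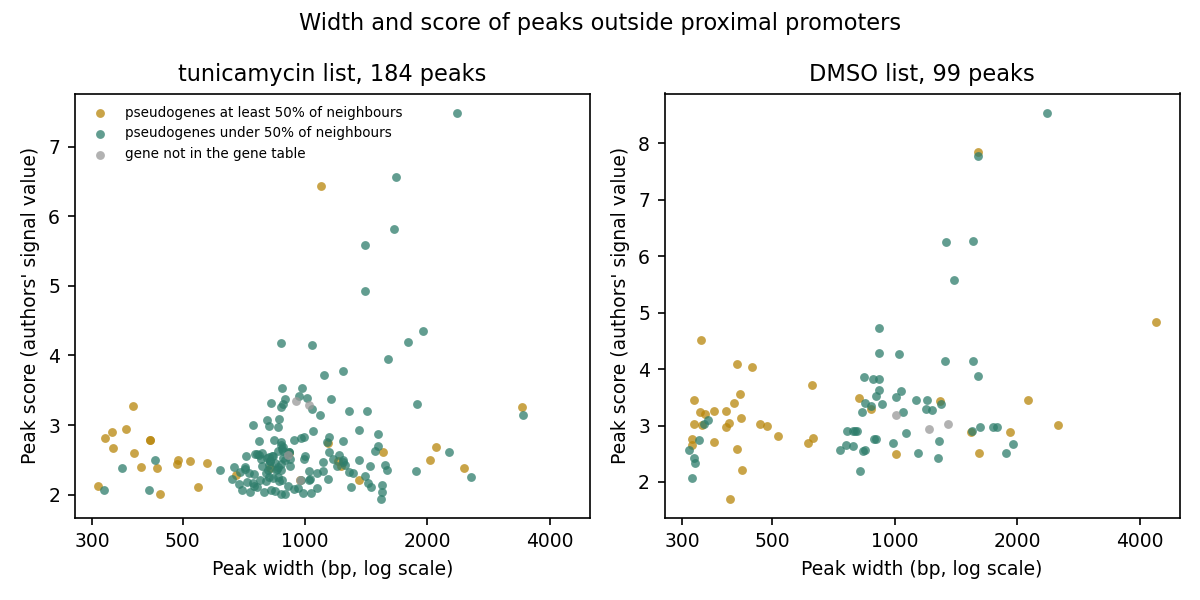
Width of each peak outside proximal promoters (bp, log scale) against its score (the authors' signal value, comparable within a list only), for the tunicamycin list and the DMSO list; each point is a peak, coloured by whether pseudogenes were at least 50% of the 20 neighbouring genes. Most peaks of at most 500 bp are in pseudogene-rich neighbourhoods, 14 of 18 in the tunicamycin list and 23 of 30 in the DMSO list.

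Along the chromosomes the rich neighbourhoods formed a few stretches. On chromosome 3, 6 tunicamycin and 10 DMSO outside peaks lay within 0.171 Mb and 0.212 Mb, from 13539889 to 13710619 in the tunicamycin list and from 13539891 to 13751959 in the DMSO list. On chromosome 5, 5 tunicamycin peaks lay between 11186588 and 11766300 and 6 DMSO peaks between 11187137 and 11766279. Chromosome 4 held 8 tunicamycin peaks of this kind between 3054788 and 5037887 and 12 DMSO peaks between 3054784 and 4010203, which was 12 of the 18 outside DMSO peaks of that chromosome. Chromosome 2 held 11 tunicamycin and 9 DMSO peaks of this kind, most of them at AT2G08986. Chromosome 1 had 1 in each list, the strong site at AT1G42420.

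Distal peaks were joined into runs when at least 3 of them followed each other with gaps of at most 100 kb. The tunicamycin list had 3 runs with 9 of its 41 distal peaks, and the DMSO list 5 runs with 23 of its 36. The trio at GATA13, LCR5 and LCR32 was a run in both lists and was the only one of these runs with no pseudogene. The run on chromosome 3 had 3 tunicamycin peaks, at the pseudogenes AT3G33084 and AT3G33076 within 4.80 kb with scores of 2.29 to 2.48. It had 6 DMSO peaks at the same 2 genes within 44.2 kb, with scores of 1.71 to 4.52. The end of the DMSO run, a pair at 13751039 and 13751626 with scores of 3.04 and 4.52, had no tunicamycin counterpart. At a lower coordinate of that stretch, AT3G33055 had the highest score of all distal DMSO peaks, 4.84 for a peak of 4397 bp, where the tunicamycin list had a peak of 3422 bp with 3.26 and a second of 363 bp given to AT3G33058.

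The run on chromosome 5, at the pseudogenes AT5G31787 and AT5G31821, was present in both lists, with 3 tunicamycin peaks between 11708428 and 11735891 and 4 DMSO peaks between 11707825 and 11735921. On chromosome 2 a DMSO run of 3 joined 2 peaks at the pseudogene AT2G07880 to the distal peak at AT2G08986. The tunicamycin list had both peaks at AT2G07880, with scores of 2.49 and 2.78, and no distal peak at AT2G08986. The run on chromosome 4 was in the DMSO list alone: 7 peaks at the pseudogenes AT4G06708, AT4G06710, AT4G06716 and AT4G06718 between 3972253 and 4010203, with scores of 2.49 to 3.46 and a median width of 342 bp, of which 0 overlapped a tunicamycin peak. Within that stretch both lists had a peak at AT4G06716 in the promoter class of 2 to 3 kb, with 2.11 in the tunicamycin list and 2.70 in the DMSO list.

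**Figure D3:**
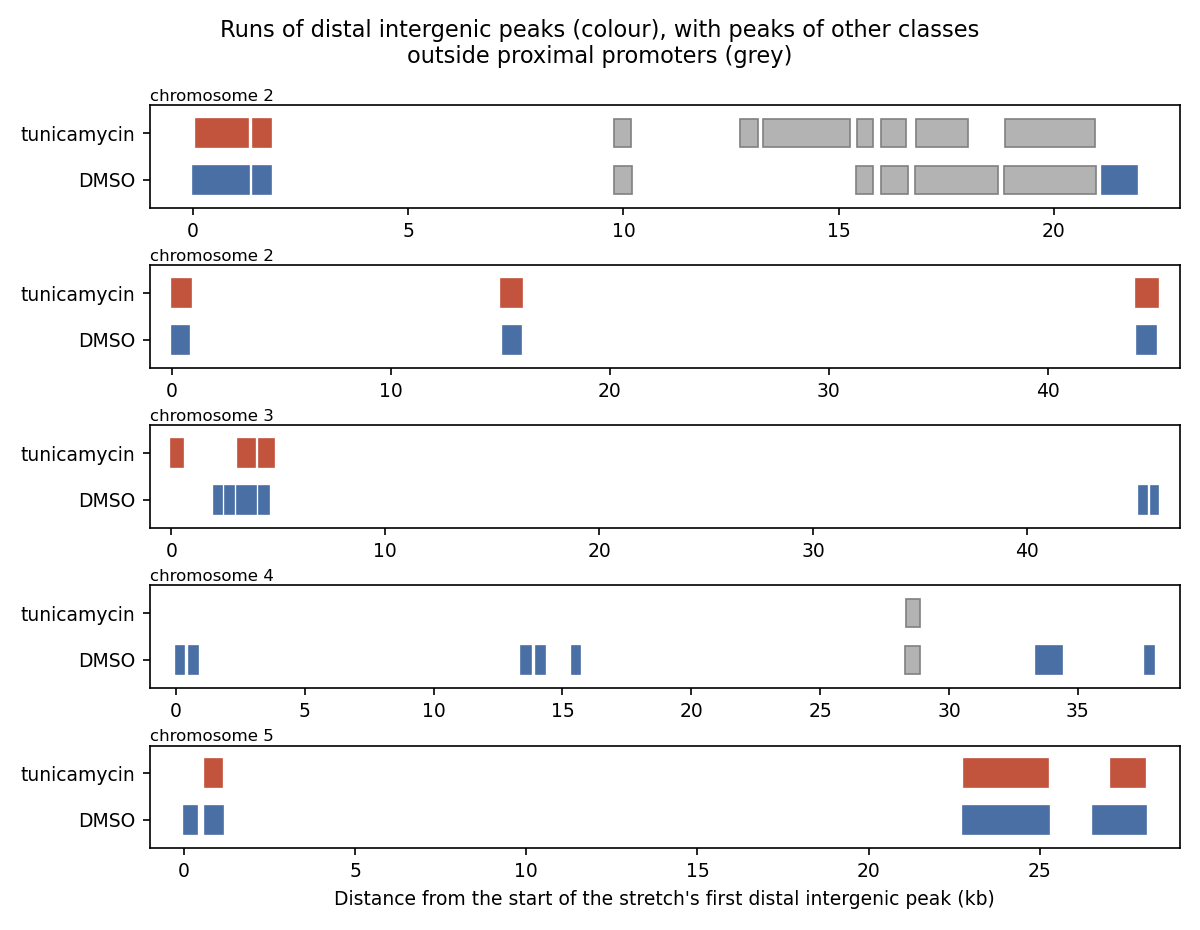
Peaks along the 5 stretches that hold a run of at least 3 distal intergenic peaks, as distance in kb from the first of them, with the tunicamycin list above the DMSO list in each panel; coloured bars are distal intergenic peaks, grey bars are other classes outside the proximal promoter, and proximal promoter peaks are not drawn. The trio on chromosome 2 and the run on chromosome 5 appear in both lists, and the 7 distal peaks on chromosome 4 in the DMSO list alone.

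How many outside sites the lists had in common was counted next, with an overlap of at least 1 bp. Of the 184 outside peaks in the tunicamycin list, 82 had a DMSO peak at the same place (44.6%, 37.6 to 51.8%), against 195 of 583 in the proximal promoter class (33.4%, 29.7 to 37.4%). Of the 99 in the DMSO list, 77 had a tunicamycin peak at the same place (77.8%, 68.6 to 84.8%), against 195 of 221 in the proximal class (88.2%, 83.3 to 91.8%). The lists differ in length, so each share can be read only within its own list. Merged over both lists, the outside peaks formed 208 separate sites, of which 73 were outside in both. The stronger 50% of peaks in each list were also set against all peaks of the other list. There 62.6% of outside tunicamycin peaks had a counterpart against 55.8% of proximal ones, and 80.0% of outside DMSO peaks against 97.0% of proximal ones. In the distal intergenic class 24 of 41 tunicamycin peaks (58.5%) and 20 of 36 DMSO peaks (55.6%) had one, and of the 8 distal DMSO peaks on chromosome 4 none did.

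Pooled over the outside classes, both shares differed between the rich and the other neighbourhoods, in opposite directions. In the rich ones 27 of 31 tunicamycin peaks (87.1%, 71.1 to 94.9%) and 22 of 38 DMSO peaks (57.9%, 42.2 to 72.2%) overlapped the other list. These intervals too take each peak as independent. Yet the 31 tunicamycin peaks were given to 21 genes and the 38 DMSO peaks to 19, so the intervals are too narrow. In the other neighbourhoods 52 of 149 tunicamycin peaks (34.9%, 27.7 to 42.8%) and 52 of 58 DMSO peaks (89.7%, 79.2 to 95.2%) did, against the 33.4% and 88.2% of the proximal class in those lists. Within the rich ones the low DMSO share was that of the distal peaks, 8 of 22 (36.4%). The remaining outside DMSO peaks there overlapped in 14 of 16 cases (87.5%). For tunicamycin the counts were 11 of 13 distal and 16 of 18 remaining outside peaks. Proximal promoter peaks in the rich neighbourhoods were few: 7 of 9 in the tunicamycin list (77.8%, 45.3 to 93.7%) and 8 of 9 in the DMSO list (88.9%, 56.5 to 98.0%) overlapped the other list. They were packed as closely as the outside ones, with median gaps of 153 bp in the tunicamycin list and 202 bp in the DMSO list. Of the 22 outside DMSO peaks with no tunicamycin counterpart, 16 were in rich neighbourhoods, and 13 of these 16 were at most 500 bp wide. Of the 6 that remained, 5 were 312 to 340 bp wide. The sixth was at BRI1, the brassinosteroid receptor gene, a peak of 1786 bp in the promoter class of 1 to 2 kb with a score of 2.97. The part of peak width in these counts was not tested.

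**Figure D4:**
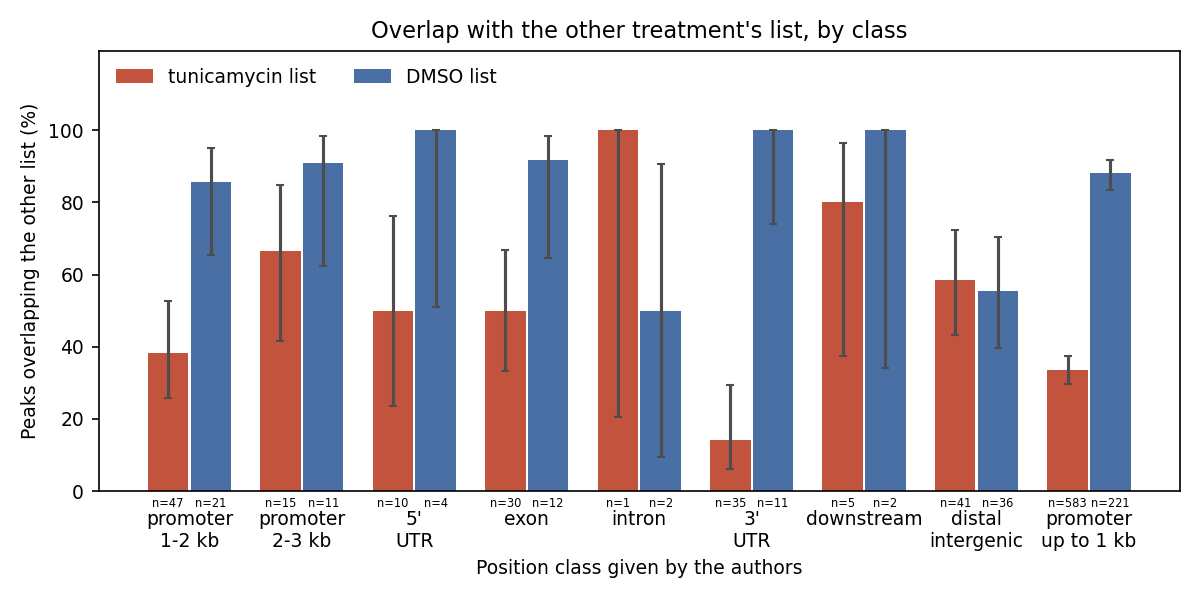
Share of peaks in each class that overlap a peak of any class in the other treatment's list by at least 1 bp (%), for the tunicamycin list and the DMSO list, with 95% Wilson intervals of counting error and n peaks; the promoter class of up to 1 kb is shown at the right. Tunicamycin peaks in the 3′ UTR overlapped at 14.3%, and DMSO peaks in the distal intergenic class at 55.6%. Overlapping peaks could be in different classes, so the bars of a class need not cover the same sites.

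Among the 102 outside tunicamycin peaks with no DMSO counterpart, scores ran from 1.95 to 3.21 with a median of 2.36, and among the 82 with one from 2.01 to 7.49 with a median of 2.79. The authors' list of tunicamycin-specific peaks held 98 of the 184 outside peaks, against 404 of the 583 proximal ones. Among the 98 were 33 in the 3′ UTR, 31 in the promoter of 1 to 2 kb and 19 in exons, and 13 of them overlapped a DMSO peak. The authors' list as a whole held no distal intergenic peak, although 17 distal tunicamycin peaks had no DMSO counterpart. The 98 of 184 and 404 of 583 are therefore not like for like, since the 184 include 41 distal peaks. The other 85 of the 102 peaks without a counterpart were all in the authors' list.

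Some sites were given different classes in the lists. Of the 82 shared tunicamycin peaks 67 met a DMSO peak of the same class and 15 did not, and 8 of the 15 met a DMSO peak in the proximal promoter class. Of the 77 shared DMSO peaks 67 met a tunicamycin peak of the same class, and 3 of the other 10 met a proximal one. Where classes differed, the starts and ends of the peaks differed as well, but peaks of the same class could also differ there. At NUDT18, 3′ UTR in both lists, the peak ended at 5127504 in the tunicamycin list and at 5127072 in the DMSO list. The part of such shifts in the class was not tested. At FRO2 the peak started at 206490 in the tunicamycin list and at 206499 in the DMSO list, ended at 208286 in the tunicamycin list and at 208708 in the DMSO list, and was classed as promoter of 1 to 2 kb in the tunicamycin list and of up to 1 kb in the DMSO list. At CCR3 a start 91 bp apart and an end 29 bp apart went with distal intergenic in the tunicamycin list and 3′ UTR in the DMSO list. ATL5 and AT2G17880 were 5′ UTR peaks in the tunicamycin list and 3′ UTR peaks in the DMSO list.

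The gene could change with the class. The tunicamycin peak at chromosome 3, 7908786 to 7910734, was assigned to AOX1A as downstream, and the DMSO peak at 7909146 to 7910701 to its neighbour TIC as promoter of 2 to 3 kb, with scores of 4.35 in the tunicamycin list and 4.15 in the DMSO list. Of the 15 tunicamycin peaks whose DMSO counterpart was in another class, 6 lay where 1 long DMSO peak faced 2 or 3 tunicamycin peaks. At AT4G06700 a DMSO peak of 5559 bp in the proximal class faced 3 tunicamycin peaks, of which 2, of 1552 bp at the same gene and 439 bp at its neighbour AT4G06702, were distal intergenic. At the non-coding RNA gene AT3G41761 a DMSO peak of 14031 bp faced a tunicamycin peak of 13467 bp in the proximal class and 1 of 354 bp that was classed as distal intergenic.

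**Figure D5:**
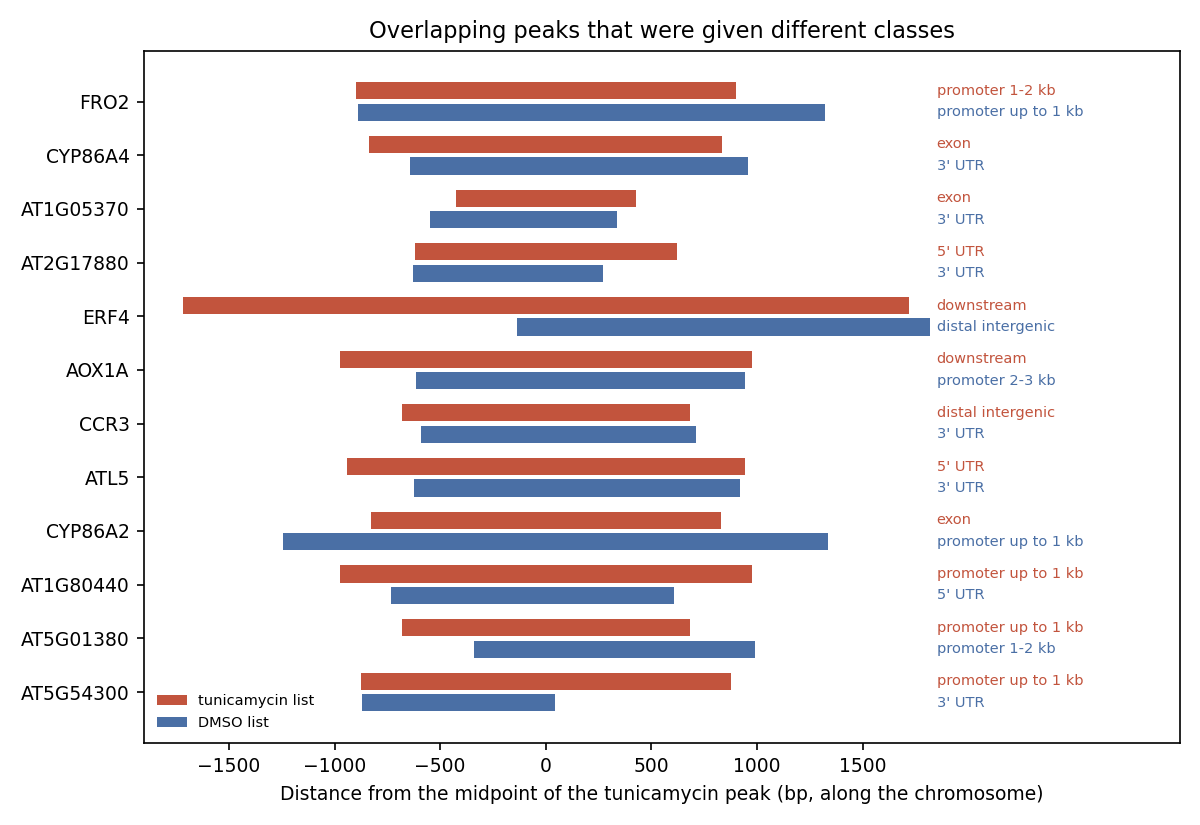
Start and end of 12 pairs of overlapping peaks that were given different classes, as distance in bp from the midpoint of the tunicamycin peak, with the tunicamycin peak above the DMSO peak and each peak's class at the right; pairs in which 1 peak faced several are left out. At FRO2 the starts lie 9 bp apart and the ends 422 bp apart, and the peak of the tunicamycin list alone is outside the proximal class.

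The kinds of genes assigned to outside and to proximal peaks were compared last. No outside peak was given to a tRNA gene in either list: 0 of 184 tunicamycin peaks, which allows a share of up to 1.63%, and 0 of 99 DMSO peaks, which allows up to 3.03%. In the proximal class tRNA genes took 62 of 583 tunicamycin peaks (10.6%) and 21 of 221 DMSO peaks (9.50%). The method behind the classes was not given. These tRNA counts therefore cannot tell a trait of outside peaks from an effect of the class rule. Pseudogenes took 28 of 184 outside tunicamycin peaks (15.2%) and 37 of 99 outside DMSO peaks (37.4%), against 2.57% and 4.52% of the proximal peaks of those lists. Protein-coding genes took 150 outside tunicamycin peaks (81.5%), against 83.2% of the proximal ones, and 58 outside DMSO peaks (58.6%), against 82.8% of the proximal ones. At genes that also had a proximal promoter peak in the same list there were 18 of the 184 tunicamycin and 12 of the 99 DMSO peaks. At genes with several outside peaks there were 16 tunicamycin peaks, of 6 genes, and 33 DMSO peaks, of 13 genes, and some peaks are in both counts.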

How the data were processed

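ChIP-seq of GBF2-Ypet was analysed from the peak lists alone. The build is TAIR10, and the tools were MACS2 2.1.2, Bowtie 1.1.2, SAMtools 1.8, cutadapt 1.8.1 and FastQC 0.11.5, per the submitters' processing notes. Not given in the sources used here were the settings of each tool, the peak threshold, the handling of replicates and input, and the method behind the position classes. A peak list for tunicamycin, another for DMSO and a list of tunicamycin-specific peaks were deposited. Each row holds a position, a width in bp, a score, which the authors' file headers name as signal value, a class and 1 gene. Start and end both count as part of a peak, since widths are end minus start plus 1.

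From these, outside peaks were selected by class and compared between lists by overlap of at least 1 bp. Gene names, kinds and order came from a RefSeq table of TAIR10.1, whose coordinates were not set against the peaks. It gave a gene kind for 170 of 174 genes of the tunicamycin list's outside peaks and 76 of 79 of the DMSO list's. Shares carry 95% Wilson intervals. A count of 0 was taken to allow 3. No test was made, since peaks are not replicates of a treatment and no list gives values per library. The overlap and run steps were tested on simulated data and recovered the planted answer in 50 of 50 draws.

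Genes were named by rule: the 5 highest-scoring peaks of each class and list, all peaks of runs, the 3 widest, members of 3 gene lists, and class changes among the 10 highest. The rule's part on distances to the 1 kb boundary could not be applied, since the files give no distances. Other class changes, BRI1, AT4G06700, AT3G41761 and all genes in the last paragraphs on aquaporins and stress responses were picked with their values in view, as were the pseudogene-rich neighbourhoods. The members and lists were chosen with earlier results of these data known. No sequence is shown because no genome of the build was used here. Computations used SciPy 1.17.1, numpy 2.4.6 and pandas 2.3.3 in Python 3.11.15, and plots matplotlib 3.10.9.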

Additional observations from a re-analysis of the deposited data

How the results depend on the processing

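No paired analysis was possible because the lists give 1 set of peaks per treatment and no values per library, and for the same reason no replicate could be left out. Of 23 comparisons with another setting, 12 stayed within the counting interval or within 1.5 times the count, and 11 moved. Leaving all promoter classes out, which is narrower by construction, gave outside shares of 15.9% for tunicamycin and 20.9% for DMSO. The strongest 50% of the DMSO list had an outside share of 37.5%, and its peaks at protein-coding genes 24.1%, while the same settings kept the tunicamycin share within its interval. Requiring midpoints within 200 bp, which is stricter by construction, gave overlaps of 35.3% of outside tunicamycin peaks and 65.7% of outside DMSO peaks. With the strongest 50% of each list set against only the strongest 50% of the other, 65% of outside DMSO peaks overlapped, since fewer tunicamycin peaks enter. Without pseudogene-rich neighbourhoods, a setting added after the data were examined, the overlaps were 34.9% of tunicamycin and 89.7% of DMSO peaks. Runs held 3 of 23 distal peaks in the strongest 50% of the tunicamycin list and 13 of 22 in that of the DMSO list. Fewer peaks enter with this setting. The tunicamycin runs at pseudogenes, on chromosomes 3 and 5, each had a median score of 2.38, below the list median of 2.47. Gaps of 50 and 200 kb and an overlap of 50% of the shorter peak kept the counts of runs and of equal classes within 1.5 times. Unknown depth limits every comparison between the lists.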

Other observations

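Genes of plasma membrane aquaporins, which let water through the membrane, had 3 of the 47 tunicamycin and 3 of the 21 DMSO peaks in the promoter class of 1 to 2 kb. Of 13 such genes (named PIP1 or PIP2 in the table's symbols or synonyms), 4 had a peak in each list, and 3 of these 4 were in that class in both lists. PIP2A (AT3G53420) scored 3.23 in the tunicamycin list and 3.62 in the DMSO list, PIP1;4 (AT4G00430) 2.76 in the tunicamycin list and 2.69 in the DMSO list, and PIP3 (AT4G35100, also PIP2;7) 2.69 in the tunicamycin list and 2.89 in the DMSO list. The peak of the other gene, RD28 (AT2G37180), was in the proximal promoter class with 2.51 in the tunicamycin list and 3.03 in the DMSO list. These genes were picked after their peaks were seen.

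Most tunicamycin peaks had no DMSO counterpart, 102 of 184 outside and 388 of 583 proximal ones, and the values of a few such genes, picked after they were seen, follow. In the promoter class of 1 to 2 kb was HAI1, a protein phosphatase 2C gene of abscisic acid signalling, with a score of 2.61 (rank 261 of 767). The homeobox genes HB-7 with 2.34 (rank 511) and HB-12 with 2.22 (rank 615) were in the same class. CBF1, an activator of cold-responsive genes, had a 3′ UTR peak with 2.27 (rank 565). HB-12 follows CYP78A9 in the TAIR10.1 gene order, and CYP78A9 had an exon peak with 2.34 in the same list, 9760 bp away. With a peak in both lists, RVE2, a MYB gene related to the clock factors CCA1 and LHY, was in the promoter class of 2 to 3 kb, with 2.31 in the tunicamycin list and 2.65 in the DMSO list. In the tunicamycin list alone RVE2 also had a proximal promoter peak. BTI1, which codes for a reticulon-like protein of the ER, had a 5′ UTR peak with 2.18 (rank 653) in the tunicamycin list alone.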
